A study of Mus musculus with 36 samples.

Results

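Field CA3 of the mouse hippocampus was compared between mice given a foot shock, the group labelled fear, and mice left in the home cage. The comparison rests on 3 libraries of each group, 6 of the 36 libraries of the series, and covers every gene with enough reads to test, which was 16145 of the 37315 genes in the count table. A further 3 CA3 libraries from mice given context exposure, the group labelled context, entered the same model. All mice were wild-type mice of BL/6 background, individually housed and handled for 3 minutes a day on 5 days, and tissue was taken 90 minutes after the behaviour. RNA was extracted with TRIzol and made into stranded polyA libraries. The sources used here do not say which mouse each library came from or whether animals were pooled, so the tests speak only of variation among these libraries, which may be technical.

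CA3 pyramidal cells receive mossy fibre input from the dentate gyrus and direct input from the entorhinal cortex, and are joined to each other by dense recurrent collaterals. The field is known for its part in the rapid encoding of contexts. Strong neuronal activity induces a rapid wave of transcription factor genes such as Fos and Egr1, followed by a delayed wave of genes that act on synapses, and an aversive event also raises circulating corticosterone, which acts through the glucocorticoid receptor.

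The CA3 libraries held 23826481 to 34063047 counts. The 8 CA3 pyramidal markers were present in every library, with a summed level of 502, 433 and 532 CPM (each gene's counts scaled to library size, after TMM normalisation) in fear libraries 1, 2 and 3 and 481, 464 and 527 in home cage libraries 1, 2 and 3. The 9 CA1 pyramidal markers, also all detected, summed to 455, 461 and 437 CPM after fear and 251, 452 and 226 in home cage, so that 2 home cage libraries were low and home cage 2 was at the level of the fear libraries. The 12 dentate granule markers were highest in fear 2 (sums of 248, 428 and 157 CPM after fear and 178, 239 and 318 in home cage). Blood markers (5 genes) summed to 15.4, 19.6 and 19.2 CPM after fear and 34.2, 54.2 and 31.5 in home cage, without overlap. A fit with the dentate granule markers as a covariate is given among the alternatives. The part that these differences have in the results below was otherwise not tested. In bulk tissue, fewer cells of a type and less RNA per cell cannot be told apart.

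**Figure D1:**
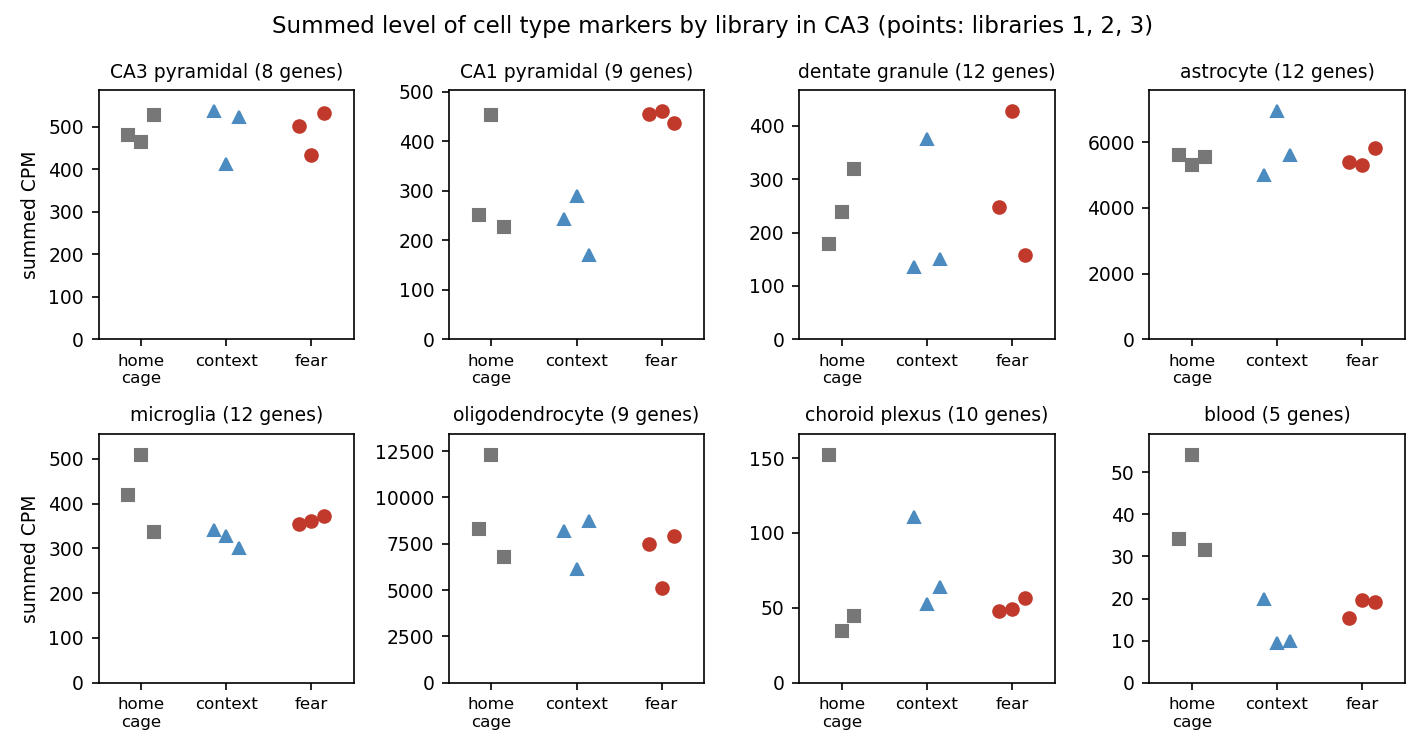
Summed CPM of 8 marker lists (y axis) in each of the 9 CA3 libraries, by condition (x axis); each point is a library. The CA1 pyramidal sum is 437 to 461 in the fear libraries and 226 to 452 in home cage, and the blood sum is higher in all 3 home cage libraries than in any fear library.

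On the first principal component of the 9 libraries (42.8% of the variance), home cage 2 lay at 77.0, and the other 5 libraries of the comparison lay between -14.3 and 23.0. On the second component (14.4%) the fear libraries lay at 21.4, 30.0 and 31.1 and the home cage libraries at -13.7, -33.3 and -1.99, without overlap. Home cage 2 stood apart from its group in several of the genes described below, and counts over gene lists are given with and without it.

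**Figure D2:**
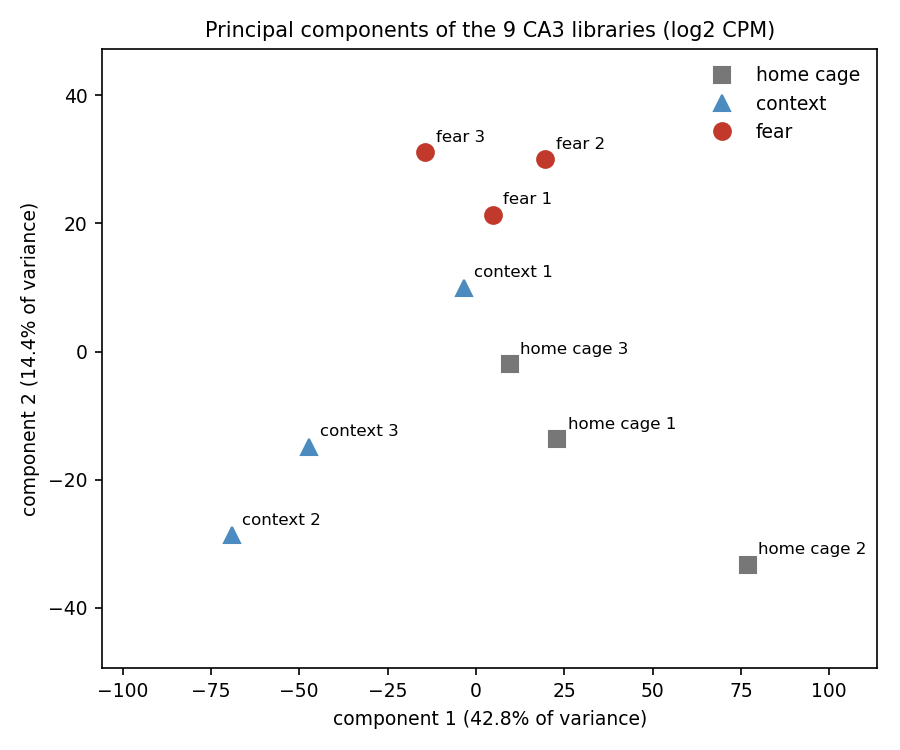
First 2 principal components of log2 CPM in the 9 CA3 libraries; each point is a library, labelled with its condition and number. Fear libraries lie at 21.4 and above on the second component and home cage libraries at -1.99 and below, and home cage 2 and context 2 lie at opposite ends of the first.

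With edgeR's quasi-likelihood test, 1 of the 16145 genes (0.00619%) passed an adjusted p under 0.05, and it was lower after fear. At an unadjusted p under 0.05, 1505 genes (9.32%) were higher after fear and 1542 (9.55%) were lower. The fear and home cage values did not overlap for 2126 genes higher after fear (13.2%) and 2397 lower (14.8%). A fit of all 36 libraries, which estimates the spread over 12 groups, called 873 genes higher (4.88%) and 362 lower (2.03%) of 17875, and DESeq2 on the 9 libraries called 356 higher and 284 lower. Of these, 306 higher and 183 lower genes were called by both. The regions were dissected from the same groups of mice, and the fit of 36 libraries treats them as independent, since the labels do not say which libraries share a mouse. Leaving out home cage 3 gave 462 calls with edgeR (326 higher and 136 lower), and leaving out any of the other 8 CA3 libraries gave 0 to 2. In what follows, a gene is said to pass only where its adjusted p is under 0.05 in the fit named, and the other values are given as differences with their standard errors (SE).

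The log2 difference varied with transcript length. Among the tenth of genes with the shortest transcripts (54 to 1177 bases), the median log2 change was -0.48, and 425 of 1598 genes were lower against 8 higher at an unadjusted p under 0.05. Among the tenth with the longest transcripts (6729 bases and more), the median was 0.24, with 451 of 1595 genes higher and 45 lower. Across genes, Spearman's rho of the change with transcript length was 0.42 and with GC content -0.15, where genes are not independent replicates. The median over all genes tested was -0.04, with 7414 genes (45.9%) above 0 and 8731 below. These are the values to set beside the counts by sign below. Within each library, the difference in level between long and short transcripts, relative to the mean of the 9 libraries, was 0.25, 0.08 and 0.37 log2 units in fear 1, 2 and 3 and -0.53, -0.80 and -0.09 in home cage 1, 2 and 3. With offsets that remove each library's trend with GC content and length, edgeR called 25 genes higher (0.155%) and 57 lower (0.353%) with an adjusted p under 0.05. At an unadjusted p under 0.05, 11.3% of all genes were then higher and 10.1% lower, and without home cage 2 (no offsets) 5.5% and 5.15%, which are the shares to set beside the list counts below. For a gene named below at an unadjusted p under 0.05, the log2 difference with these offsets, or without home cage 2, follows its SE where it differs by more than 1.5 times. The part of RNA quality or library preparation in this trend was not tested.

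**Figure D3:**
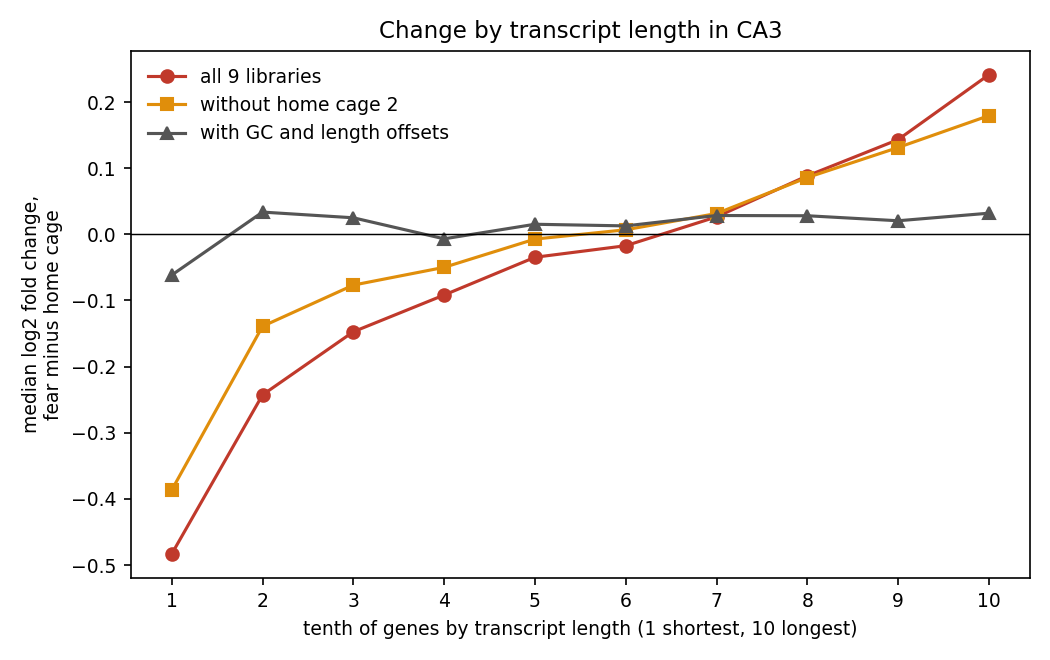
Median log2 fold change, fear minus home cage (y axis), in 10 equal groups of genes ordered by transcript length (x axis), for the 9 libraries, without home cage 2, and with GC and length offsets. The median goes from -0.48 in the shortest group to 0.24 in the longest, goes from -0.39 to 0.18 without home cage 2, and is between -0.06 and 0.03 with the offsets.

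The gene that passed in the 9 libraries was Gm13340 (chr2:22588103-22589647 on the minus strand, GRCm38), annotated as an unprocessed pseudogene. Its level was 18.9, 19.95 and 18.7 CPM after fear and 41.1, 45.6 and 36.9 in home cage, a log2 difference of -1.10 ± 0.13 (SE; adjusted p = 0.0363), and -0.83 with GC and length offsets (adjusted p = 0.0429). All 3 fear libraries were below all 3 home cage libraries. The next gene in order of p among those lower after fear was its neighbour Gm13341 (chr2:22587291-22587962), at 4.78, 6.39 and 5.42 CPM after fear and 13.3, 14.7 and 12.6 in home cage (log2 -1.29 ± 0.18, -0.80 with offsets; adjusted p = 0.0849). Both passed in the fit of 36 libraries (adjusted p = 0.00807 for each).

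Both are nuclear copies of mitochondrial genes. Over its 1545 bases Gm13340 differed from mt-Co1, which encodes subunit 1 of cytochrome c oxidase, at 37 positions (97.6% identity), and the longest stretch without a difference was 148 bases. Gm13341 differed from mt-Co2, which encodes subunit 2, at 16 of 672 aligned positions (97.6%), with a longest identical stretch of 173 bases. Reads from these loci and from mitochondrial transcripts can therefore be alike, and the counts of both kinds are uncertain. The windows of 90 bases with the most differences are shown to make the likeness visible, with differing bases in capitals and all other bases in lower case.
Gm13340 (chr2:22589114-22589203, minus strand): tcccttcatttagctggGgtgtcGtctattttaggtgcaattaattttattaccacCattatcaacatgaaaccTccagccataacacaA
mt-Co1 (chrM:5772-5861, plus strand): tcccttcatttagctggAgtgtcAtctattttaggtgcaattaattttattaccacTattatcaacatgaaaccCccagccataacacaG
Gm13341 (chr2:22587441-22587530, minus strand): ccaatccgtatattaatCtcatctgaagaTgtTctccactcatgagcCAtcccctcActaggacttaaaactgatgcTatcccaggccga
mt-Co2 (chrM:7457-7546, plus strand): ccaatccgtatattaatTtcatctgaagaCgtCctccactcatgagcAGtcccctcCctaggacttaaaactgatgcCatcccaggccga
The mitochondrial genes themselves, named here after their values were seen, were also lower after fear but did not pass. For mt-Co1 the levels were 17217, 17138 and 18845 CPM after fear and 25653, 22844 and 18907 in home cage (log2 -0.34 ± 0.18; adjusted p = 0.318), without overlap. For mt-Co2 they were 20.01, 29.05 and 22.04 CPM after fear and 63.9, 50.6 and 27.3 in home cage (log2 -0.99 ± 0.30, -0.49 with offsets; adjusted p = 0.162), where fear 2 was above home cage 3. The counts of mt-Co2 were far below those of mt-Co1. The reason was not tested, so the level and the difference of mt-Co2 are uncertain. In the context libraries Gm13340 was at 34.9, 31.99 and 30.9 CPM and Gm13341 at 11.4, 10.99 and 11.2, between the other groups in every library.

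Mir29c (chr1:195037547-195037634, plus strand) was the third in order of p of the genes lower after fear whose average reached 3 log2 CPM. In polyA libraries its reads come from the primary transcript that spans the hairpin, not from the mature microRNAs, whose sequences (RefSeq, GRCm38.p6) are shown with the seed, bases 2 to 8, in capitals.
mmu-miR-29c-3p: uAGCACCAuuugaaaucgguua
mmu-miR-29c-5p: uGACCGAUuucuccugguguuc
Its level was 6.34, 7.10 and 4.80 CPM after fear and 13.99, 17.5 and 12.4 in home cage (log2 -1.27 ± 0.21, -0.71 with offsets; adjusted p = 0.147, and 0.013 in the fit of 36 libraries). The context libraries, at 12.4, 10.4 and 13.4 CPM, overlapped the home cage libraries and lay above all fear libraries.

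At this level of expression, the other genes lowest in p among those lower after fear were Ndufa3, Sox9, Echdc2, Rsrp1, Atp5k, Tcea2, Hmgn3, Atp5e and Rpl38. Sox9, a transcription factor of astrocytes, was at 12.4, 14.3 and 13.1 CPM after fear and 23.5, 26.9 and 21.5 in home cage (log2 -0.85 ± 0.16). Hmgn3, a nucleosome-binding protein, was at 34.3, 32.9 and 28.4 CPM after fear and 49.7, 51.4 and 49.2 in home cage (log2 -0.65 ± 0.13, -0.41 with offsets). Tcea2, a transcription elongation factor, was at 37.2, 38.03 and 27.5 CPM after fear and 54.7, 61.7 and 55.2 in home cage (log2 -0.74 ± 0.14). In each of these the 3 fear libraries lay below the 3 home cage libraries. Genes were named here only if the groups did not overlap, so this separation was set by the choice. Echdc2 differed by -1.34 ± 0.25 and Rsrp1 by -1.04 ± 0.19. Adjusted p of the 9 genes ran from 0.147 to 0.15 in the 9 libraries, and each passed in the fit of 36, from 0.00807 to 0.0194. With GC and length offsets Sox9 was at -0.93, and Sox9, Echdc2, Rsrp1 and Atp5e passed (adjusted p = 0.0429 for each).

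Of the genes higher after fear, Tenm3 had the smallest p. Tenm3 encodes a teneurin, a transmembrane adhesion protein that guides the matching of axons with their targets. Its level was 123, 106 and 134 CPM after fear and 47.7, 48.5 and 67.5 in home cage, a log2 difference of 1.15 ± 0.18 (adjusted p = 0.126 in the 9 libraries and 0.0249 in the fit of 36), and the lowest fear library was well above the highest home cage library. Gpr161, a receptor of the primary cilium that is also on the list of CA1 markers, was at 36.6, 31.8 and 40.7 CPM after fear and 17.8, 18.5 and 17.5 in home cage (log2 1.02 ± 0.16; adjusted p = 0.14, and 0.136 in the fit of 36). Sorcs3, a sorting receptor of the postsynaptic density induced by activity, was at 57.4, 50.4 and 69.8 CPM after fear and 32.5, 31.99 and 36.3 in home cage (log2 0.82 ± 0.14; adjusted p = 0.147 and 0.0361).

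Others of this group act at membranes, in the matrix or in transport. Lrrc8c, a subunit of the volume-regulated anion channel, was at 53.4, 47.4 and 57.3 CPM after fear and 29.3, 24.7 and 35.2 in home cage (log2 0.82 ± 0.15). Ext1, a polymerase of heparan sulfate, differed by 0.71 ± 0.13. Itpr1, the inositol trisphosphate receptor that releases calcium from the endoplasmic reticulum, was at 475, 456 and 505 CPM after fear and 298, 250.4 and 311 in home cage (log2 0.74 ± 0.15, 0.44 with offsets). Dync1h1, the heavy chain of cytoplasmic dynein, was at 1022, 854 and 1014 CPM after fear and 412, 465 and 599 in home cage (log2 0.97 ± 0.20). In each of these the groups did not overlap, which the rule for naming them required. Abhd2 (0.71 ± 0.13), Arid5b, a DNA-binding protein (1.07 ± 0.20), Cpm, a carboxypeptidase (0.72 ± 0.14), and Parm1 (0.89 ± 0.18) were also among those of smallest p at an average of 3 log2 CPM or more. The genes of this and the preceding paragraph passed in the fit of 36 libraries, with Gpr161 as the exception, while in the 9 libraries none did. With GC and length offsets the log2 differences were smaller, such as 0.89 for Tenm3 and 0.44 for Itpr1, and 8 genes passed: Tenm3, Gpr161, Sorcs3, Abhd2, Lrrc8c, Cpm, Parm1 and Dync1h1.

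**Figure D4:**
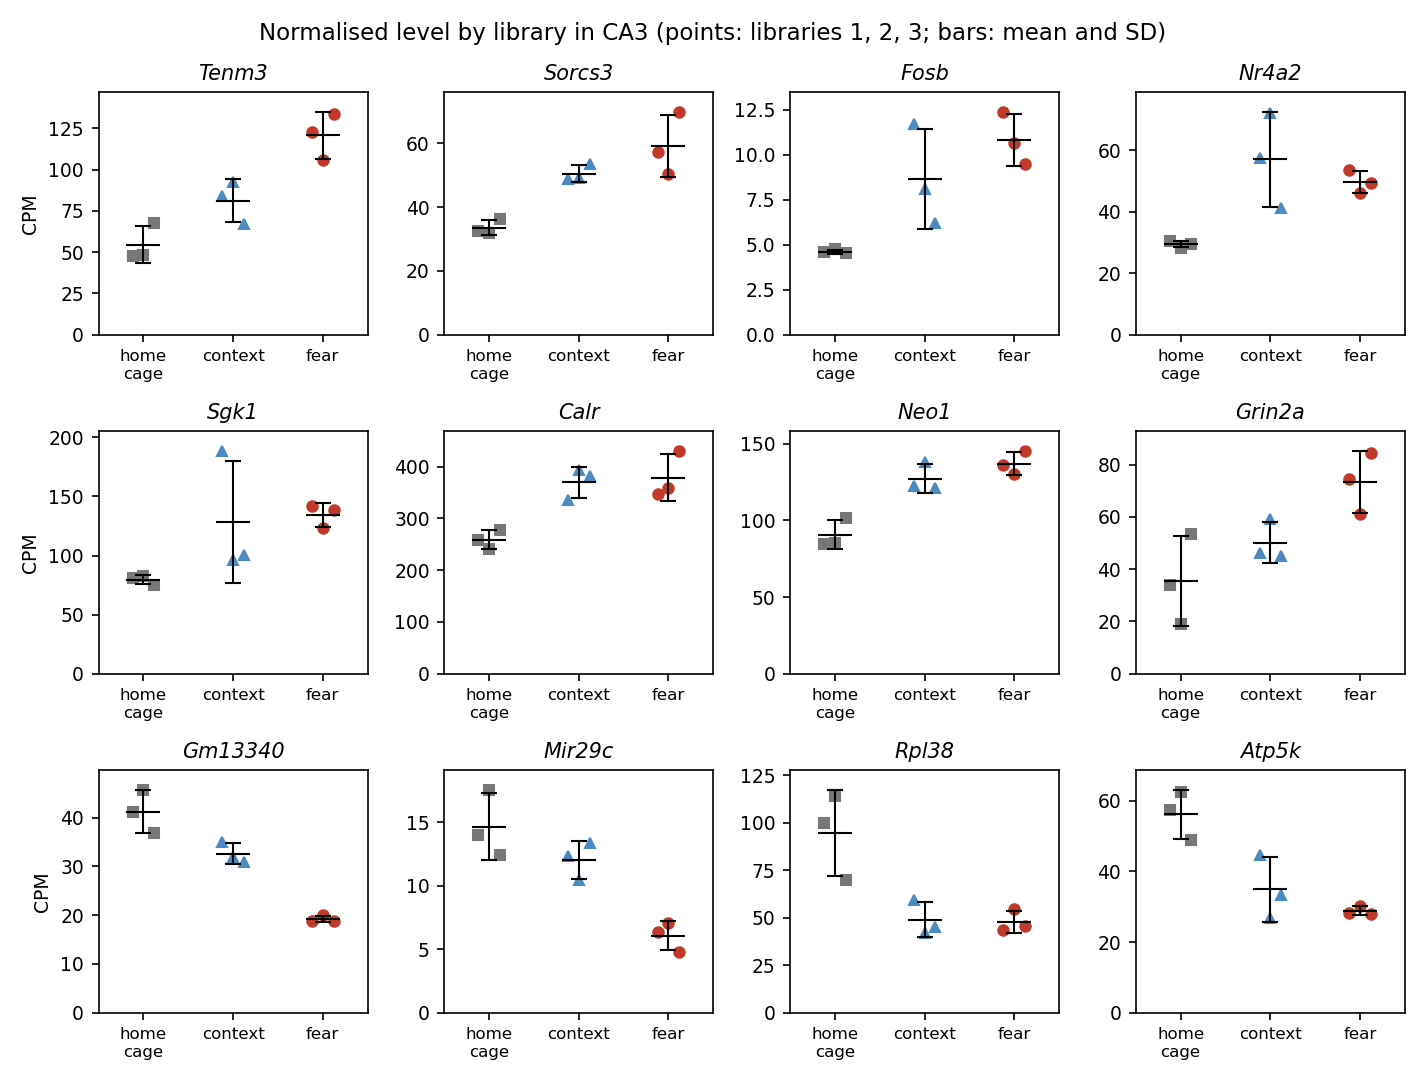
CPM (y axis, from 0) of 12 genes in the 3 home cage, 3 context and 3 fear libraries of CA3; points are libraries, bars are the mean and SD. In each panel the fear and home cage points do not overlap. The rule that named Tenm3, Sorcs3, Gm13340, Mir29c, Rpl38 and Atp5k required this. The context points lie in different places from gene to gene, such as 12.4, 10.4 and 13.4 for Mir29c and 59.6, 42.2 and 45.4 for Rpl38.

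The largest log2 differences often rested on 1 library. Myof, a protein of membrane repair, was at 11.2, 56.9 and 14.6 CPM after fear and 9.89, 4.36 and 8.08 in home cage (log2 1.89 ± 0.59), where fear 2 was the high value. Slc26a2, a sulfate transporter, was at 11.5, 39.3 and 12.2 CPM after fear and 9.15, 7.52 and 10.95 in home cage, and Ahnak, a very large scaffold protein, at 30.3, 75.3 and 22.5 CPM after fear and 17.99, 21.5 and 21.2 in home cage, with the same library high. The dentate granule markers were also highest in fear 2. A fit with their level as a covariate called 0 genes and reversed 0 of the named genes. The log2 differences of these genes in that fit are not given here, and the part of the markers in their size was not tested. Slc8a1, the sodium-calcium exchanger, was high in all fear libraries, at 80.6, 63.9 and 104 CPM after fear and 38.5, 26.5 and 50.5 in home cage (log2 1.10 ± 0.22; adjusted p = 0.0245 in the fit of 36). Fn1, fibronectin of the extracellular matrix, was at 20.9, 36.8 and 19.8 CPM after fear and 7.36, 12.2 and 14.2 in home cage (log2 1.20 ± 0.29), and Palm2 differed by 1.08 ± 0.29.

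In several genes with a large difference on the lower side, home cage 2 was the high value. Uqcrq, a subunit of respiratory complex III, was at 11.9, 15.4 and 8.93 CPM after fear and 21.1, 79.2 and 16.5 in home cage, so that its log2 difference of -1.69 ± 0.54 was -0.63 without home cage 2. Metrn, which encodes the secreted factor meteorin, was at 11.6, 10.9 and 9.28 CPM after fear and 20.8, 61.1 and 12.2 in home cage (log2 -1.57 ± 0.48, -0.63 without it). Dlk2 (-1.44, -0.69 without it) and Dohh (-1.33, -0.49 without it) followed the same pattern.

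Genes of the rapid activity-regulated wave were uneven. 5 of 27 members were higher and 0 lower at an unadjusted p under 0.05 (6 and 0 without home cage 2, 6 and 0 with offsets), and the median log2 difference was -0.07. Fosb was at 12.4, 10.6 and 9.47 CPM after fear and 4.57, 4.75 and 4.55 in home cage (log2 1.23 ± 0.24; adjusted p = 0.15, and 0.0199 in the fit of 36), with closely grouped home cage libraries. Egr1 was at 119.9, 89.4 and 95.4 CPM after fear and 47.1, 78.8 and 64.2 in home cage (log2 0.68 ± 0.19) and Fos at 8.60, 19.5 and 6.65 CPM after fear and 5.41, 5.07 and 3.69 in home cage (log2 1.29 ± 0.36), where fear 2 was highest. Neither overlapped between groups. Maff, a small Maf transcription factor, was at 0.741, 2.55 and 1.00 CPM after fear and 0.235, 0.701 and 0 in home cage, close to the limit of counting, and is given no fold.

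Other rapid genes, named after their values were seen, were highest in home cage 2. Arc, which acts in the removal of AMPA receptors from synapses, was at 86.6, 71.01 and 64.98 CPM after fear and 78.2, 124 and 60.3 in home cage (log2 -0.24 ± 0.24). Junb was at 4.11, 5.96 and 2.60 CPM after fear and 3.53, 34.2 and 3.08 in home cage, and Egr4 at 2.67, 2.52 and 2.48 CPM after fear and 1.61, 10.1 and 1.89 in home cage. Without home cage 2 the median of the list was 0.52, and the median of all genes was -0.01. The list's median was thus below 0 with this library and above 0 without it. Npas4 was at 14.3, 9.10 and 8.34 CPM after fear and 15.2, 16.3 and 10.1 in home cage, and its groups overlapped.

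Of the delayed activity-regulated genes, 13 of 33 members were higher and 0 lower at an unadjusted p under 0.05 (9 and 0 without home cage 2, 14 and 0 with offsets), with a median log2 difference of 0.40. Fosl2, an AP-1 transcription factor, was at 39.1, 40.1 and 39.9 CPM after fear and 22.9, 13.1 and 22.1 in home cage (log2 1.03 ± 0.22). Nr4a2, a nuclear receptor needed for hippocampal memory, was at 53.5, 46.2 and 49.3 CPM after fear and 30.3, 28.3 and 29.5 in home cage (log2 0.76 ± 0.18). Plk2, a kinase that weakens overactive synapses, was at 266, 249.7 and 264 CPM after fear and 171, 189.8 and 182 in home cage (log2 0.52 ± 0.13; adjusted p = 0.15, and 0.015 in the fit of 36). In all 3 the fear libraries lay above the home cage libraries by more than the spread within either group.

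Homer1, which encodes a postsynaptic scaffold with a short activity-induced form, was at 164, 135 and 162 CPM after fear and 92.5, 70.1 and 113 in home cage (log2 0.74 ± 0.22; adjusted p = 0.044 in the fit of 36), and Bdnf, a neurotrophin, was at 63.5, 50.9 and 68.5 CPM after fear and 54.4, 46.1 and 62.7 in home cage (log2 0.16 ± 0.17) with overlap. Both were named after their values were seen. In the fit of 36 libraries 3 delayed members passed, Sorcs3, Plk2 and Homer1, and 3 rapid members, Fosb, Fos and Maff, all higher. Without home cage 2 the delayed median was 0.37, and with GC and length offsets 0.38. For context minus home cage the delayed median was 0.45, and for fear minus context it was -0.14.

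Many activity-regulated promoters hold the cAMP response element, the palindrome TGACGTCA bound by CREB. In the 250 bases before the RefSeq start (GRCm38.p6), searched on both strands since the motif is its own reverse complement, 3 of 22 rapid genes and 3 of 21 delayed genes with a promoter window held it, against 336 of 11862 tested genes (2.83%). The 60 bases around each match are shown with the motif in capitals, first the 3 genes that were higher at an unadjusted p under 0.05 and then the 3 that were not. A match is a description of letters and not of binding.
Plk2 (chr13:110394956-110395015, plus strand): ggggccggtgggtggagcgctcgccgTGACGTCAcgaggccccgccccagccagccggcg
Maff (chr15:79347460-79347519, plus strand): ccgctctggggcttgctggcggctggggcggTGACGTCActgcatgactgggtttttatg
Scg2 (chr1:79440061-79440120, minus strand): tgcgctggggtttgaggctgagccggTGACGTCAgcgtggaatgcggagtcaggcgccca
Pcsk1 (chr13:75089753-75089812, plus strand): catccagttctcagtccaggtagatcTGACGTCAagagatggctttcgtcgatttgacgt
Btg2 (chr1:134079288-134079347, minus strand): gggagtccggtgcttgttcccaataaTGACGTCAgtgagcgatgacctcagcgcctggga
Dusp1 (chr17:26508582-26508641, minus strand): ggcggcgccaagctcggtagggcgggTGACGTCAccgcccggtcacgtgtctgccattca
Scg2 and Dusp1 are described here for the motif and were named after their values were seen. Scg2, a granin of secretory vesicles, was at 188, 197 and 221 CPM after fear and 171, 149 and 156 in home cage (log2 0.35 ± 0.14). Dusp1, a phosphatase of MAP kinases, was at 8.67, 7.90 and 9.15 CPM after fear and 11.7, 8.26 and 8.69 in home cage (log2 -0.15 ± 0.20). The perfect motif was thus present upstream of genes on both sides of the threshold.

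Among glucocorticoid-responsive genes, 10 of 22 members were higher and 1 lower at an unadjusted p under 0.05 (9 and 0 without home cage 2, 12 and 0 with offsets), and the median was 0.26. Sgk1, a kinase induced by corticosteroids, was at 142, 123 and 138 CPM after fear and 81.01, 82.8 and 74.99 in home cage (log2 0.76 ± 0.22; adjusted p = 0.162, and 0.0318 in the fit of 36). Fkbp5, a co-chaperone that restrains the glucocorticoid receptor, was at 75.8, 73.9 and 90.3 CPM after fear and 59.9, 46.02 and 60.2 in home cage (log2 0.53 ± 0.15; adjusted p = 0.036 in the fit of 36). Errfi1, an inhibitor of EGF receptor signalling, was at 70.96, 66.4 and 79.3 CPM after fear and 49.5, 41.8 and 47.6 in home cage (log2 0.64 ± 0.13), and Klf9, a transcription factor, at 165, 145 and 181 CPM after fear and 109.9, 89.9 and 128 in home cage (log2 0.58 ± 0.15). The groups did not overlap in any of these 4.

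In the fit of 36 libraries 5 of this list passed as higher, these 4 and Nr3c2, the mineralocorticoid receptor (0.60 ± 0.18). The 1 that passed as lower was Mt1, a metallothionein, at 31.02, 41.2 and 23.9 CPM after fear and 68.5, 215 and 34.02 in home cage, where home cage 2 was the high value and the log2 difference of -1.72 ± 0.71 was -0.66 without it. The receptor gene Nr3c1 itself differed by 0.15 ± 0.20, with overlap. These 3 genes were named after their values were seen.

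Of the circadian clock genes, 2 of 19 members were higher and 1 lower at an unadjusted p under 0.05 (2 and 0 without home cage 2, 3 and 2 with offsets), near the shares of all genes (9.32% and 9.55%). Bhlhe40, a repressor that is also induced by activity, was at 73.96, 90.2 and 67.5 CPM after fear and 43.7, 47.9 and 42.2 in home cage (log2 0.79 ± 0.16; adjusted p = 0.0174 in the fit of 36), and Nfil3 at 11.04, 8.76 and 9.31 CPM after fear and 5.48, 3.35 and 5.55 in home cage (log2 1.01 ± 0.26; adjusted p = 0.0174). Per3 was at 45.5, 59.9 and 35.6 CPM after fear and 58.9, 72.6 and 66.6 in home cage (log2 -0.49 ± 0.17), with overlap. Dbp was at 9.86, 13.2 and 10.5 CPM after fear and 10.9, 36.4 and 12.5 in home cage, and its log2 difference of -0.83 was -0.06 without home cage 2.

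Chaperones of the endoplasmic reticulum, which fold secreted and membrane proteins, were higher in 18 of 19 members tested by sign, against 45.9% of all genes. At an unadjusted p under 0.05, 8 of 19 members were higher and 0 lower (8 and 0 without home cage 2, 12 and 0 with offsets), with a median of 0.32. Calr, calreticulin, was at 346, 358 and 429.99 CPM after fear and 258, 242 and 278 in home cage (log2 0.54 ± 0.14; adjusted p = 0.15, and 0.00807 in the fit of 36). Hyou1 was at 122, 126 and 133 CPM after fear and 79.3, 73.6 and 98.4 in home cage (log2 0.60 ± 0.14), Pdia3 at 187, 198 and 216 CPM after fear and 139, 122 and 153 in home cage (log2 0.54 ± 0.16) and Pdia4 at 45.3, 61.2 and 42.3 CPM after fear and 33.9, 33.1 and 34.8 in home cage (log2 0.55 ± 0.16), the latter both disulfide isomerases. The same 8 members, these with Atf6, Hspa5, Xbp1 and Dnajb11, passed in the fit of 36 libraries. With GC and length offsets the list's median was 0.38, and without home cage 2 it was 0.30.

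Of the cytosolic chaperones, 5 of 18 members were higher and 1 lower at an unadjusted p under 0.05 (2 and 0 without home cage 2, 5 and 1 with offsets). By sign, 11 members were above 0 and 7 below, with a median of 0.08 (0.17 without home cage 2 and 0.16 with offsets). Hsp90ab1, a constitutive form of HSP90, was at 2279, 2169 and 2637 CPM after fear and 1634, 1358 and 1807 in home cage (log2 0.56 ± 0.16; adjusted p = 0.0106 in the fit of 36). Hspa4 (0.47 ± 0.18), Hsph1 (0.43 ± 0.17) and Dnajb1 (0.32 ± 0.12) were also higher without overlap.

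Cerebellins are secreted proteins that link presynaptic neurexins with postsynaptic partners, and Cbln4 binds neogenin and DCC, which are among the netrin receptors. Cbln4 and Neo1 are the genes named in the title of the series. Of this list, 8 of 24 members were higher and 0 lower at an unadjusted p under 0.05 (6 and 0 without home cage 2, 6 and 0 with offsets), with a median of 0.37. Neo1, neogenin, was at 136, 130.00 and 145 CPM after fear and 84.9, 85.5 and 102 in home cage (log2 0.60 ± 0.13; adjusted p = 0.15), without overlap, and its log2 difference was 0.35 with GC and length offsets. Its adjusted p in the fit of 36 libraries was 0.00751. Cbln4 was at 12.9, 10.2 and 12.1 CPM after fear and 9.79, 7.60 and 9.79 in home cage, a small difference (adjusted p = 0.348 in the 9 libraries and 0.43 in the fit of 36) whose lowest fear library was just above the highest home cage library.

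Among their partners, Nrxn3, a neurexin, was at 403, 309 and 458 CPM after fear and 214, 163 and 280.1 in home cage (log2 0.83 ± 0.20; adjusted p = 0.0117 in the fit of 36). Grid1, the delta receptor that binds cerebellins, was at 79.9, 68.2 and 89.96 CPM after fear and 52.5, 39.6 and 59.8 in home cage (log2 0.65 ± 0.17; adjusted p = 0.0405), and Dscam, an adhesion molecule that also binds netrins, at 84.7, 70.7 and 94.1 CPM after fear and 51.05, 42.6 and 63.9 in home cage (log2 0.66 ± 0.17, 0.43 with offsets; adjusted p = 0.0177). Of those named after their values were seen, Dcc differed by 0.73 ± 0.28, 0.46 without home cage 2. Nrxn2 was at 96.2, 93.1 and 93.9 CPM after fear and 83.5, 162 and 84.5 in home cage, where home cage 2 was the high value. Home cage 3 lay nearest to the fear libraries in Nrxn3, Grid1, Dscam and Dcc.

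Of the other synaptic adhesion genes, 16 of 49 members were higher and 0 lower at an unadjusted p under 0.05 (8 and 0 without home cage 2, 17 and 0 with offsets), with a median of 0.25. Besides Tenm3, Tenm2 was at 182, 164 and 192 CPM after fear and 77.6, 77.7 and 126 in home cage (log2 0.93 ± 0.19). Adgrl3, a latrophilin that binds teneurins and FLRT proteins, was at 84.9, 77.00 and 89.96 CPM after fear and 42.9, 36.9 and 64.2 in home cage (log2 0.81 ± 0.19; adjusted p = 0.0169 in the fit of 36), and Slitrk5 at 103, 88.7 and 107 CPM after fear and 64.5, 57.98 and 77.6 in home cage (log2 0.57 ± 0.14; adjusted p = 0.03). In these 3 the groups did not overlap and home cage 3 was the highest of its group.

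**Figure D5:**
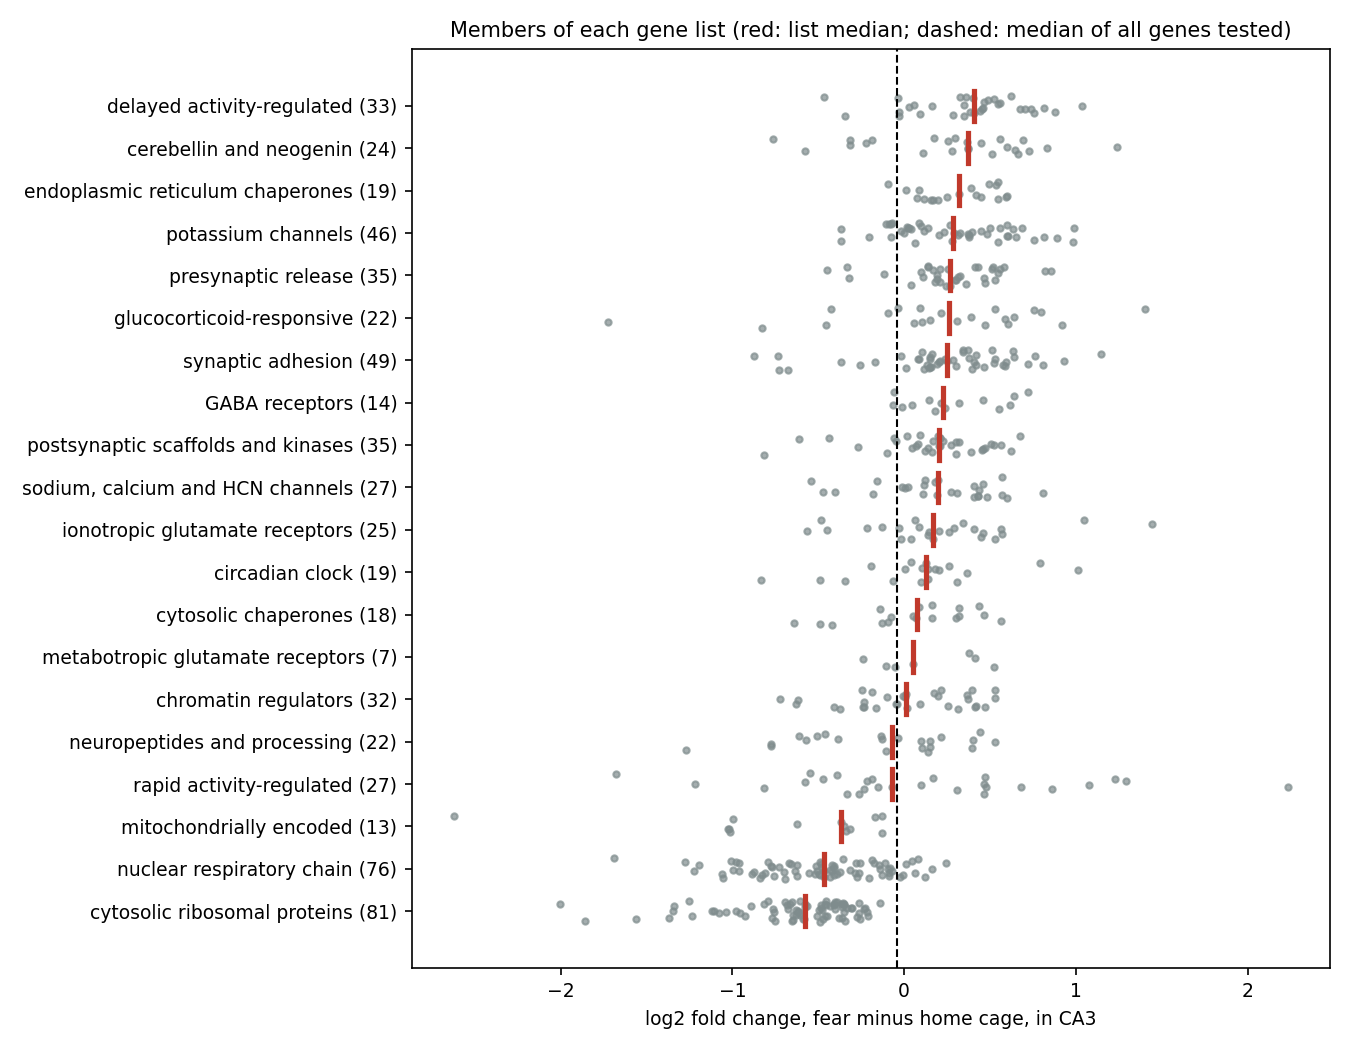
Log2 fold change, fear minus home cage (x axis), of each tested member of the 19 pathway lists and the mitochondrially encoded genes (points), with list medians in red, the median of all genes as a dashed line and the number of members tested in brackets. Medians run from -0.57 for ribosomal proteins to 0.40 for delayed activity-regulated genes.

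Glutamate receptor genes were higher in part. Of the ionotropic list, 8 of 25 members were higher and 0 lower at an unadjusted p under 0.05 (8 and 0 without home cage 2, 8 and 1 with offsets). Grin2a and Grin2b encode subunits of the NMDA receptor; Grin2a was at 74.4, 61.1 and 84.6 CPM after fear and 33.9, 19.1 and 53.4 in home cage (log2 1.05 ± 0.30; adjusted p = 0.0316 in the fit of 36). Grin2b was at 108, 83.3 and 134 CPM after fear and 28.04, 15.9 and 75.5 in home cage (log2 1.44 ± 0.46), with home cage libraries far apart. The obligatory subunit Grin1, named after its value was seen, was at 217, 206 and 197 CPM after fear and 151, 289 and 188 in home cage (log2 -0.02 ± 0.25), with overlap.

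Cacng2, stargazin, which carries AMPA receptors to synapses, was at 72.5, 60.7 and 72.8 CPM after fear and 47.5, 43.7 and 58.6 in home cage (log2 0.46 ± 0.14), and the kainate receptor Grik3 at 30.7, 31.8 and 23.3 CPM after fear and 18.3, 17.8 and 23.3 in home cage (log2 0.53 ± 0.18, 0.30 with offsets). Of the metabotropic receptors, 3 of 7 members were higher and 0 lower at an unadjusted p under 0.05 (0 and 0 without home cage 2, 2 and 0 with offsets), among them Grm5 (0.52 ± 0.19, 0.34 with offsets; adjusted p = 0.041 in the fit of 36) and Grm7 (0.38 ± 0.17, 0.23 without home cage 2). Of the GABA receptor genes, 6 of 14 members were higher and 0 lower at an unadjusted p under 0.05 (2 and 0 without home cage 2, 5 and 0 with offsets), with a median of 0.23 (0.14 without home cage 2). Gabbr2, a subunit of the GABA-B receptor, was at 387, 329 and 438 CPM after fear and 238, 202 and 301 in home cage (log2 0.64 ± 0.19; adjusted p = 0.0357), and its partner Gabbr1 differed by 0.32 ± 0.14, 0.20 with offsets.

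Of the potassium channel genes, 15 of 46 members were higher and 0 lower at an unadjusted p under 0.05 (9 and 0 without home cage 2, 12 and 1 with offsets), with a median of 0.28. Kcnd2, the A-type channel of dendrites, was at 175, 147 and 180.3 CPM after fear and 95.6, 88.3 and 128 in home cage (log2 0.69 ± 0.18; adjusted p = 0.0185 in the fit of 36), and Kcnq3, a subunit of the M-current channel, at 72.2, 64.2 and 74.3 CPM after fear and 31.4, 21.2 and 53.7 in home cage (log2 0.99 ± 0.26; adjusted p = 0.0256). Kcnj6, an inward rectifier opened by G proteins, differed by 0.81 ± 0.26 (adjusted p = 0.049). In these 3 the groups did not overlap.

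Of the sodium, calcium and HCN channel genes, 8 of 27 members were higher and 0 lower at an unadjusted p under 0.05 (4 and 0 without home cage 2, 7 and 2 with offsets). Scn8a, a sodium channel of the axon initial segment, was at 663, 542 and 709 CPM after fear and 387, 363 and 539.8 in home cage (log2 0.57 ± 0.18, 0.28 with offsets; adjusted p = 0.0316 in the fit of 36). With offsets for GC and length the median of this list was 0.16, and that of the potassium channels 0.21.

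Postsynaptic scaffolds and kinases gave a median of 0.20, and 9 of 35 members were higher and 1 lower at an unadjusted p under 0.05 (4 and 0 without home cage 2, 8 and 3 with offsets). Dlg3, which encodes the scaffold SAP102, was at 240.2, 244 and 260.2 CPM after fear and 159, 156 and 211 in home cage (log2 0.50 ± 0.15; adjusted p = 0.0184 in the fit of 36). Prkcb, a protein kinase C, differed by 0.62 ± 0.19 (adjusted p = 0.0316). Crtc2, a coactivator of CREB, was lower, at 27.5, 28.2 and 22.04 CPM after fear and 33.1, 49.8 and 36.03 in home cage (log2 -0.61 ± 0.20, -0.40 without home cage 2; adjusted p = 0.0361).

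Of the presynaptic release genes, 9 of 35 members were higher and 1 lower at an unadjusted p under 0.05 (5 and 1 without home cage 2, 13 and 2 with offsets). Pclo, piccolo of the active zone, was at 575, 417 and 609 CPM after fear and 257, 200.4 and 429 in home cage (log2 0.85 ± 0.25; adjusted p = 0.0184 in the fit of 36), with overlap through home cage 3. Syn1, a synapsin of the vesicle pool, was at 684, 532 and 891 CPM after fear and 427, 499.6 and 506 in home cage (log2 0.56 ± 0.18; adjusted p = 0.0321). Unc13b, a priming factor found at mossy fibre synapses, was lower in all fear libraries, at 81.3, 80.97 and 67.1 CPM after fear and 105, 108 and 100.3 in home cage (log2 -0.45 ± 0.13, -0.77 with offsets). With the offsets Unc13b passed (adjusted p = 0.0429).

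Neuropeptide and chromatin genes had medians near that of all genes. Of the neuropeptide list, 2 of 22 members were higher and 1 lower at an unadjusted p under 0.05 (1 and 0 without home cage 2, 3 and 0 with offsets); Pam, the enzyme that amidates peptides, was at 220.00, 208 and 223 CPM after fear and 148, 117 and 186 in home cage (log2 0.53 ± 0.17; adjusted p = 0.0184 in the fit of 36). Of the chromatin regulators, 6 of 32 members were higher and 1 lower at an unadjusted p under 0.05 (5 and 1 without home cage 2, 4 and 9 with offsets). Kdm5b, a histone demethylase, was at 118, 107 and 123 CPM after fear and 77.9, 69.8 and 92.8 in home cage (log2 0.53 ± 0.14, 0.26 with offsets; adjusted p = 0.013), and Tet2, which oxidises methylcytosine, was lower, at 46.1, 50.97 and 36.3 CPM after fear and 61.03, 56.9 and 59.4 in home cage (log2 -0.41 ± 0.14, -0.68 with offsets). With the offsets Tet2 passed as lower (adjusted p = 0.0498), and the median of the list was -0.12.

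Of the 19 pathway lists, the ribosomal proteins had the lowest median. All 81 cytosolic ribosomal protein genes tested, of 82 listed, had a log2 difference below 0, from -2.00 to -0.14, and 0 of 81 members were higher and 51 lower at an unadjusted p under 0.05 (0 and 23 without home cage 2, 0 and 28 with offsets), with a median of -0.57. Rpl38 was at 43.7, 54.5 and 45.8 CPM after fear and 100.01, 114 and 69.9 in home cage (log2 -0.98 ± 0.19, -0.31 with offsets; adjusted p = 0.15, and 0.00848 in the fit of 36). Rpl30 was at 73.4, 91.02 and 76.1 CPM after fear and 141, 142 and 107 in home cage (log2 -0.70 ± 0.16) and Rpl26 at 149, 161 and 163 CPM after fear and 279, 272 and 194 in home cage (log2 -0.65 ± 0.16, -0.13 with offsets). In the 3 the highest fear library was below the lowest home cage library, which the naming rule required of Rpl38. Home cage 3 was the lowest of its group in the 3.

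In the fit of 36 libraries 22 ribosomal protein genes passed as lower and 0 as higher. The size of the difference depended on the correction for transcript length: the list's median was -0.21 with GC and length offsets. Without home cage 2, which held the highest sum of these genes (13682, 15639.7 and 9586 CPM in home cage 1, 2 and 3, and 8231, 10166 and 8619.9 after fear), the median was -0.38. Many ribosomal protein genes have near-identical processed pseudogenes, so single values such as that of Rps29 (-1.56 ± 0.46), Rps26 (-1.37 ± 0.46, -0.87 without home cage 2) or Rpl23a (-1.34 ± 0.37) are uncertain.

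The nuclear genes of the respiratory chain were also lower in most members. 0 of 76 members were higher and 42 lower at an unadjusted p under 0.05 (0 and 31 without home cage 2, 1 and 21 with offsets), with a median of -0.47 (-0.14 with GC and length offsets), and 23 passed as lower in the fit of 36. Ndufa3, of complex I, was at 36.3, 35.97 and 35.5 CPM after fear and 72.6, 72.3 and 54.6 in home cage (log2 -0.89 ± 0.16, -0.50 with offsets). Atp5k and Atp5e, small subunits of ATP synthase, were at 28.3, 30.3 and 27.9 CPM after fear and 57.3, 62.3 and 48.8 in home cage (log2 -0.96 ± 0.18, -0.44 with offsets) and at 32.5, 34.1 and 32.6 CPM after fear and 66.2, 65.1 and 44.7 in home cage (log2 -0.83 ± 0.16), and Cox5b, of complex IV, at 76.7, 79.96 and 75.4 CPM after fear and 137, 210.4 and 111 in home cage (log2 -0.98 ± 0.21, -0.65 with offsets). Fear libraries were lower than home cage libraries in all 4, which the naming rule required of Ndufa3, Atp5k and Atp5e. The 7 members with a difference above 0 were Sdha, Atp5a1, Atp5b, Ndufa10, Sdhc, Cyc1 and Uqcrc1, at 0.01 to 0.24, and none of them passed an unadjusted p under 0.05.

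All 13 mitochondrially encoded genes had a difference below 0 (median -0.37), and 0 of 13 members were higher and 6 lower at an unadjusted p under 0.05 (0 and 5 without home cage 2, 1 and 0 with offsets). Their share of all counts was 4.30%, 4.45% and 4.55% after fear and 6.51%, 6.20% and 4.82% in home cage, without overlap. With GC and length offsets their median was -0.01.

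Markers of other cells differed in both directions, and none passed in the 9 libraries. Of the CA1 pyramidal markers, 4 of 9 members were higher and 0 lower at an unadjusted p under 0.05 (7 and 0 without home cage 2, 3 and 0 with offsets), among them Gpr161, Fibcd1 and Man1a, with a median of 0.43 that was 0.95 without home cage 2. Of the microglial markers, 0 of 12 members were higher and 7 lower at an unadjusted p under 0.05 (0 and 1 without home cage 2, 0 and 1 with offsets), with a median of -0.49 (-0.36 without home cage 2 and -0.19 with offsets), such as Tyrobp (-0.71 ± 0.20, -0.22 with offsets) and Trem2 (-0.92 ± 0.30, -0.43 without home cage 2), which both passed in the fit of 36 libraries (adjusted p = 0.0332 and 0.0316), while Cx3cr1 and Csf1r differed by 0.16 ± 0.13 and 0.13 ± 0.13. Of the astrocyte markers, 0 of 12 members were higher and 4 lower at an unadjusted p under 0.05 (0 and 2 without home cage 2, 0 and 5 with offsets), Sox9, S100b, Ntsr2 and Gfap, whereas Slc1a3 and Gja1 differed by 0.07 ± 0.15 and -0.01 ± 0.15. The summed microglial markers were 355, 362 and 372 CPM after fear and 419, 509 and 336 in home cage, and the summed astrocyte markers 5406, 5296 and 5812 and 5611, 5301 and 5545. Of the interneuron markers, 3 of 12 members were higher and 1 lower at an unadjusted p under 0.05 (2 and 1 without home cage 2, 4 and 1 with offsets), with Reln (0.78 ± 0.21, 0.49 with offsets) and Gad1 (0.54 ± 0.17) among the higher ones. By sign, 5 interneuron markers were above 0 and 7 below, with a median of -0.09 (0.14 without home cage 2 and 0.14 with offsets). The choroid plexus marker Ttr was at 2.71, 9.01 and 3.39 CPM after fear and 97.1, 7.01 and 9.40 in home cage, high in home cage 1. These markers were named after their values were seen, apart from Gpr161 and Sox9.

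The study's design also sets fear against context, the group that the labels describe as context exposure. edgeR called 0 of 16145 genes in this comparison (lowest adjusted p 0.15), with 3785 (23.4%) at an unadjusted p under 0.05, and DESeq2 called 730. Leaving out context 1 gave 3383 calls with edgeR. The comparisons share libraries, so their values are set side by side. Tenm3 differed from context by 0.57 ± 0.17 (adjusted p = 0.15), and context from home cage by 0.57 ± 0.17. For Gm13340 the differences were -0.76 ± 0.13 and -0.34 ± 0.13, and for Mir29c -0.99 ± 0.21 and -0.28 ± 0.21. For these 3 genes the context libraries lay between the other groups in their mean.

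For other genes the context group was nearer to fear. Nr4a2 was at 57.6, 72.1 and 41.3 CPM in context, -0.20 ± 0.18 for fear minus context and 0.96 ± 0.18 for context minus home cage. Errfi1 (-0.27 ± 0.13 and 0.91 ± 0.14), Neo1 (0.11 ± 0.13 and 0.49 ± 0.13) and Rpl38 (-0.03 ± 0.19 and -0.95 ± 0.19) gave values of the same kind. These 4 genes passed in context minus home cage (adjusted p = 0.045 for each), a comparison in which edgeR called 2243 genes (13.9%). Dync1h1 (0.82 ± 0.20 and 0.15 ± 0.19) and Arid5b (0.83 ± 0.20 and 0.24 ± 0.20) had the larger value against context. None of these differences between fear and context passed, and the genes of this paragraph were named as examples after their values were seen. List medians for fear minus context and context minus home cage were -0.14 and 0.45 in delayed activity-regulated genes. They were -0.07 and 0.51 in endoplasmic reticulum chaperones and 0.23 and -0.86 in cytosolic ribosomal proteins. In ionotropic glutamate receptors they were 0.51 and 0.07, and over all genes -0.02 and -0.01. These lists are also examples.

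The response of CA3 was then compared with that of CA1, the next field of the hippocampus, sampled in the same conditions. The test of the difference, CA3 minus CA1 in the fit of 36 libraries, called 0 of 17875 genes (lowest adjusted p 0.852), with 712 (3.98%) at an unadjusted p under 0.05, and DESeq2 called 2. Tenm3 differed between fear and home cage by 1.15 ± 0.18 in CA3 and 1.37 ± 0.49 in CA1, Fosb by 1.23 ± 0.24 and 1.38 ± 0.43, Dync1h1 by 0.97 ± 0.20 and 0.97 ± 0.20, and Rpl38 by -0.98 ± 0.19 and -0.92 ± 0.17. Gm13340 differed by -1.10 ± 0.13 in CA3 and -0.62 ± 0.22 in CA1. Myof, Fn1 and Ahnak, at 1.89, 1.20 and 1.08 in CA3, were at -0.20 ± 0.44, -0.09 ± 0.54 and -0.23 ± 0.33 in CA1, and the tests of the difference gave adjusted p of 0.996, 0.996 and 0.996. The median over ribosomal protein genes was -0.57 in CA3 and -0.72 in CA1, and that over delayed activity-regulated genes 0.40 and 0.48. The genes of smallest p in this test included Cdh1, Pdzk1ip1, Gm11732 and Tpx2 on the side higher in CA3 and Avpr1b, Gm5578, Pcp2, Zfp771 and Cuta on the other, with adjusted p of 0.852 and more.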

How the data were processed

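PolyA RNA libraries from 4 regions and 3 conditions, 36 in all, were sequenced by the authors, and the deposited table holds raw gene-level counts. The submitters' processing notes name Trimmomatic 0.33, STAR 2.7.10b, HTSeq 2.0.1 and the build mm10. The annotation release and strand setting were not given in the sources used here. The 9 CA3 libraries were fitted with edgeR 4.0.16 (R 4.3.3; filterByExpr, TMM, robust quasi-likelihood test, 6 residual degrees of freedom), with Benjamini-Hochberg adjustment over 16145 genes and a threshold of 0.05. A fit of all 36 libraries, DESeq2 1.42.0, limma 3.58.1 voom weights and offsets for GC content and transcript length (GENCODE M21) were alternatives. The code was tested on simulated counts. CPM are TMM-normalised, and the log2 difference is given with its standard error. With 3 libraries against 3, an exact permutation test cannot go below p = 0.1. The deepest and shallowest CA3 libraries held 34063047 and 23826481 counts.

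Named genes were first drawn from those with a symbol, an average of 3 log2 CPM or more and fear values that did not overlap home cage values. Of these, the 12 of smallest p and the 8 of largest change at an unadjusted p under 0.05 were taken in each direction. Added to them were the 4 members of smallest p in each of the 19 pathway lists, Cbln4 and Neo1, and 5 genes in each direction for CA3 minus CA1. Members and lists were chosen with earlier results of these data known. Gene symbols were matched for 35533 of 37315 identifiers. Libraries of a group differed by far more than sampling noise. Sequences were aligned with Biopython 1.88. Some genes that this rule names are not reported here.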

Additional observations from a re-analysis of the deposited data

How the results depend on the processing

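All 108 named genes kept their direction under every alternative that gave them a value. Most were chosen for a small p or for values without overlap in these libraries, so this outcome was largely set by the choice. The call of 1 gene between fear and home cage became 15 without a filter on low counts, 640 with DESeq2, 3662 with voom weights, 1235 with all 36 libraries, 82 with GC and length offsets, 931 with the replicate block and these offsets, 0 with the replicate block alone, 0 with a dentate marker covariate, 0 with only the 6 libraries and 2 without home cage 2 and context 2, an alternative chosen after seeing the data. Leaving out 1 library gave 0 to 462 calls, and the 462 came without home cage 3. Genes at an unadjusted p under 0.05 (3047) numbered 5929 with voom weights and 1613 to 3903 on leaving out a library, with 1613 without fear 3, 1757 without home cage 2 and 2017 without fear 1. For fear against context, calls (0) became 730 with DESeq2, 8570 with voom weights, 1 with all 36 libraries, 2 without home cage 2 and context 2 and 0 to 3383 on leaving out a library, and genes at an unadjusted p under 0.05 (3785) became 9485 with voom weights, 1740 with offsets, 2004 with block and offsets and 1858 to 5918 on leaving out a library. For CA3 minus CA1, calls (0) became 2 with DESeq2 and 0 to 4 on leaving out a library (4 without CA3 fear 3), and genes at an unadjusted p under 0.05 (712) became 401 with only the 18 libraries of CA1 and CA3 and 575 to 1396 on leaving out a library, with 1396 without CA1 home cage 1 and 1091 without CA3 home cage 3. The cause of these shifts was not tested.

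The labels do not say whether the replicate numbers pair the libraries. Deviations of same-numbered fear and home cage libraries from their group means correlated at -0.23, 0.40 and 0.38. These values depend on each other and cannot decide whether the libraries were paired. With the replicate block, 2928 genes had an unadjusted p under 0.05 between fear and home cage, 3550 between fear and context and 677 for CA3 minus CA1.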
